A study of Homo sapiens with 12 samples.

Results

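The autosomal forkhead box (FOX) genes were examined in chromatin accessibility data from HT1080 cells, an established human fibrosarcoma line of mesenchymal character. Members were the protein-coding autosomal genes of the RefSeq annotation of GRCh38.p14 whose symbol is FOX followed by a letter from A to S, a number and any suffix. The rule gave 49 of 19126 autosomal protein-coding genes. They were divided by textbook knowledge of where each gene is expressed, with earlier results of these data already known. Of the 49, 11 are expressed in most tissues and are called broad. Another 30 are restricted to lineages: 8 to mesoderm and mesenchyme, 10 to endoderm and epithelia, 8 to neural and sensory tissue and 4 to the early embryo or gonad. The remaining 8 are kept apart, as 7 duplicated copies (FOXO3B, FOXD4 and 5 FOXD4-like genes) and FOXL2NB, which the symbol rule catches although it is a neighbour of FOXL2 and not a forkhead gene.

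The study placed HT1080 cells in rat tail type I collagen gels at 0.3, 1.0 or 1.7 mg/mL, with 4 libraries at each concentration and 12 in all. The broad matrix metalloproteinase inhibitor GM6001, at 20 µM, was present in all 3 groups, and the time in collagen was 48 h. All libraries come from 1 cell line and none is without the inhibitor. Accessibility was read by ATAC-seq, which relies on a transposase that cuts and tags open DNA, and the values analysed here form a single peak list pooled over the series. No value in it belongs to a library or a concentration, so accessibility at FOX genes was not compared between collagen densities, there are no replicates, and the depth of each library is unknown. In a pooled list from bulk cells, a site open in part of the cells and a site open less in every cell cannot be told apart.

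Forkhead proteins share a winged-helix DNA-binding domain and otherwise act in very different settings. FOXO factors are excluded from the nucleus when the insulin, PI3-kinase and AKT pathway is active, and FOXM1 drives genes of the late cell cycle. FOXA factors open compacted chromatin in endoderm, while FOXC, FOXD and FOXF factors pattern mesenchyme. The values below describe which of these genes have open starts in a fibrosarcoma line.

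The deposited list held 188019 summits, the points of highest signal, in 91278 intervals. The authors' enrichment at a summit is the fragment pileup over the local background estimated by the peak caller, and its median over the list was 4.27. The pileup, taken as the number of overlapping fragments, was recovered from the deposited values. Whether the peak caller counted fragments or single reads is not given in the sources used here. The median pileup was 101, its lowest value 35, and the lowest background was 20.3 fragments. Enrichments below are the authors' values, and each interval in parentheses after one is a 95% exact Poisson interval on the pileup with the background held fixed, which covers counting error only. Among genes that mark mesenchymal cells, VIM and FN1 had summits at their starts with enrichments of 6.64 and 15.1, while COL1A1 and THY1 had none there. Of the markers of other lineages, EPCAM had 2.11 and PTPRC, CDH1 and PECAM1 had none. For all of these but VIM, FN1 and PTPRC, either gene end stood in for a start. In the gene or within 10 kb, the highest values were 14.1 at COL1A1, 4.04 at THY1, 15.9 at EPCAM, 10.1 at PTPRC, 12.5 at CDH1 and 15.98 at PECAM1, so strong summits were also found around markers of other lineages.

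The FOX genes held 234 distinct summits in the gene or within 10 kb of it, in 183 intervals, the longest of 2424 bp. Of the 49 members, 45 had at least 1 such summit, a share close to the 90.9% of all autosomal protein-coding genes. Those without one included FOXI1, FOXB2 and FOXE1. A summit within 1000 bp of a start was found for 31 of 49 members (63.3%), against 66.8% of all such genes, a share near the background. At a stricter −log10 q of at least 10, which 61.5% of all genes met, 20 of 49 members had one. The classes within the family differed. All 11 broad members had a start summit, compared with 15 of the 30 restricted members. At the stricter threshold the counts were 11 of 11 broad and 8 of 30 restricted members. Starts were taken from the RefSeq promoter table for the 38 members it lists, and for the other 11 members either end of the gene stood in. Among members with an annotated start, 9 of 9 broad and 11 of 21 restricted members had a start summit. Over all 15101 autosomal protein-coding genes with an annotated start the share was 68.5%. These are counts over genes in pooled data and were not tested.

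Strength differed as well as presence. The highest start enrichment had a median of 9.47 over the 11 broad members and 3.75 over the 15 restricted members with a summit, next to 11.9 over all genes with one (quartiles 7.24 and 14.8). The median start pileup was 465 fragments in broad and 123 in restricted members, against 780.5 over all genes. Both FOX classes were thus below the genome median, the broad class within its middle range. The classes overlapped, since broad members spanned 5.07 to 17.3 and restricted members 1.49 to 15.0.

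**Figure D1:**
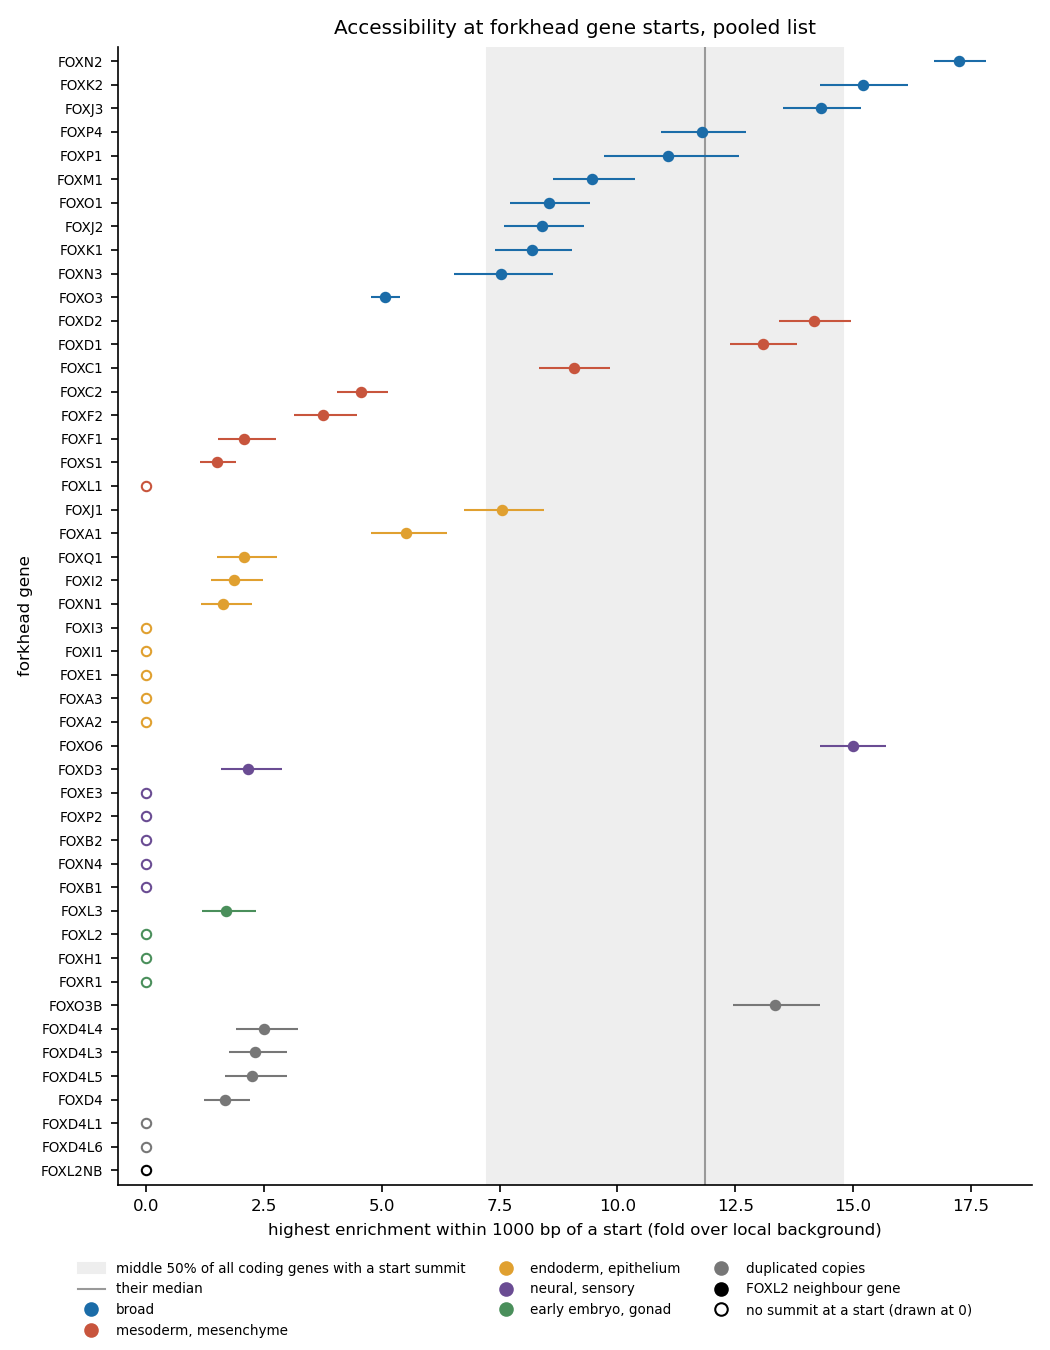
Highest deposited enrichment within 1000 bp of a start (horizontal axis, fold over local background) for 48 of the 49 members (rows), coloured by class, with 95% counting intervals. Open circles at 0 are members without a start summit. The grey band and line are the quartiles (7.24 and 14.8) and the median (11.9) of all autosomal protein-coding genes with a start summit. All 11 broad members carry a filled point, while restricted members are found both filled and open.

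Of the broad genes, the strongest start belonged to FOXN2, a little-studied factor expressed in many tissues. Its enrichment was 17.3 (16.7 to 17.8), from a pileup of 3667, in the interval chr2:48314160-48315076. That summit lay 795 bp inside the lower-coordinate end of the gene and 257 bp from an end of the noncoding gene LOC124907766. FOXK2, a regulator of autophagy and glycolytic genes, followed with 15.2 (14.3 to 16.2) and a pileup of 1027, 152 bp before its start in chr17:82519029-82519780. Its relative FOXK1 reached 8.19 (7.39 to 9.04) at the start, 114 bp upstream, with a pileup of 388. The FOXK1 and FOXK2 intervals did not overlap, so the difference between these promoters exceeds counting error, though not necessarily the spread between libraries.

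The 250 bases upstream of the FOXK2 start are shown because they hold the strongest start summit among broad members with an annotated start. The sequence is from the RefSeq promoter table (GRCh38.p14, chr17:82519482-82519731, plus strand), written 5′ to 3′ with every CpG dinucleotide in capitals. It contains 43 CpGs, and the summit falls at base 99.
FOXK2: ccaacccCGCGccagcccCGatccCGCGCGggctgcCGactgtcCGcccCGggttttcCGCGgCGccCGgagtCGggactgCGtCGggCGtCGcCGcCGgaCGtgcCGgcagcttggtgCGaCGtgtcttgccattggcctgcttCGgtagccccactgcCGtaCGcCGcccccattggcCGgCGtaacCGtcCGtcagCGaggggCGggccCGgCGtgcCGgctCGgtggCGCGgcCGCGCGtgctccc

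FOXJ3, a factor of muscle and germ cells that is also widely expressed, had 14.3 (13.5 to 15.2) and a pileup of 1177, in chr1:42334392-42335761. The summit was 52 bp before the middle of its 3 annotated starts. FOXJ2, its closest relative in the family, had 8.41 (7.59 to 9.29) and a pileup of 384 at the start, 17 bp downstream. A stronger FOXJ2 summit, at 12.7 and 873 fragments, lay 5882 bp upstream.

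FOXP4 and FOXP1 encode repressors that pair through a leucine zipper. FOXP4 had a start enrichment of 11.8 (10.9 to 12.7) and a pileup of 678, in chr6:41545715-41546495, where the start of the antisense gene FOXP4-AS1 lay 7 bp from the summit. A summit of 11.9 (pileup 987) was found 35269 bp into the gene. FOXP1 had 6 annotated starts spread over a gene of 629271 bp, and 3 of them had no summit within 1000 bp. At its outermost start the enrichment was 6.22 (5.44 to 7.07) with a pileup of 228. Within 1000 bp of an internal start, and 690 bp from an end of MIR1284, it was 11.1 (9.71 to 12.6) with a pileup of 235, over a background that was at the lowest value of the list there and 35.8 at the outermost start. The fragment numbers at the 2 starts were therefore nearly equal and the enrichments were not.

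FOXM1, the mitotic activator, had a start enrichment of 9.47 (8.63 to 10.4) and a pileup of 465, in chr12:2876524-2877928, 31 bp outside the higher-coordinate end of the gene. The same summit lay 940 bp from an end of RHNO1, a DNA damage response gene. FOXO1, which carries insulin signals to metabolic genes, had 8.54 (7.72 to 9.42) and a pileup of 396, 26 bp upstream of its start in chr13:40666065-40667235. FOXN3, a checkpoint repressor, had 7.53 (6.53 to 8.64) and a pileup of 200, 54 bp upstream of its start and 98 bp from an end of the noncoding gene LOC105370617. Enrichment at FOXN3 was higher inside the gene, at 12.7 with a pileup of 563, 192992 bp from the start.

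FOXO3, a stress-responsive FOXO factor, had the lowest start enrichment of the broad class, 5.07 (4.78 to 5.39), yet a pileup of 1075, the third highest of the class. Its local background was 211 fragments, close to the 212 at FOXN2 and far above the 45.5 at FOXO1. The interval, chr6:108559413-108561225, held a second summit of 2.58, 36 bp before the outermost of 4 annotated starts. Another summit lay 1313 bp upstream, with 6.39 and a pileup of 1280, and 6 bp from the start of the noncoding gene LOC124901372. FOXO3 was thus low by enrichment and high by fragments.

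**Figure D2:**
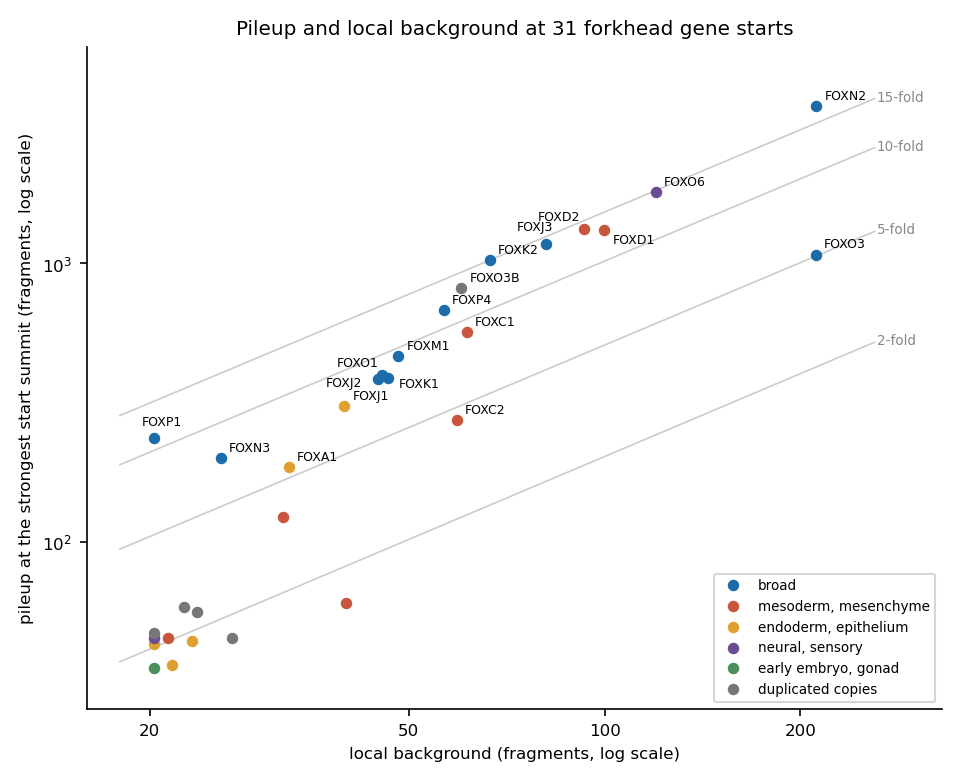
Pileup at the strongest start summit (vertical axis, fragments, log scale) against the local background (horizontal axis, fragments, log scale) for the 31 members with a start summit, coloured by class. Grey lines mark equal enrichment. FOXO3 and FOXN2 share a background near 211 and differ in pileup, 1075 against 3667.

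Broad FOX genes are long, with a median of 89148 bp against 3912 bp for restricted members and 24476.5 bp over all genes. They held 128 of the summits, of which 94 lay inside the gene away from a start, 15 in the flanks and 19 at starts. Restricted members held 81, with 20 inside the gene, 41 in the flanks and 20 at starts. Per 100 kb of gene and flank the medians were 6.58 in broad and 8.85 in restricted members, and 6.12 over all genes, so the larger number in broad genes went with their length. In broad genes the median enrichment was 7.53 at starts, 4.41 inside genes and 4.33 in flanks. In restricted genes it was 2.18 at starts, 2.55 inside genes and 2.79 in flanks, the lowest median at starts. By pileup the order in restricted genes was different, with starts highest, at medians of 154 fragments at starts, 88.5 inside genes and 95 in flanks, and in broad genes starts were highest by both measures, with 384, 120.5 and 150 fragments. The strongest summit of the whole window was the start summit in 5 of 11 broad members and in 8 of the 15 restricted members with a start summit.

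An enrichment of at least 10 was reached by 10 of the 94 summits inside broad genes, in 5 genes, and by 0 of the 20 inside restricted genes, too few for a comparison of the classes. The highest was in FOXK1, 62907 bp from its start, with 16.5 (15.9 to 17.2) and a pileup of 2267 in chr7:4744846-4745517, above the 8.19 at the FOXK1 start. FOXP1 held 42 summits in its window, the most of any member, and its highest was 13.7 (12.7 to 14.9) with a pileup of 606, 117633 bp from the nearest start. Whether these positions are exons or introns was not determined here. A FOXK1 flank summit of 14.5 lay 62 bp from the start of AP5Z1, the next gene.

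Mesoderm and mesenchyme genes, the class nearest to the origin of HT1080, had a start summit in 7 of 8 members. Of these, 5 met a −log10 q of at least 10. Over all autosomal protein-coding genes the shares were 66.8% and 61.5%. For 4 of the 8 members either gene end stood in for the start. With a start window of 500 bp, FOXF1, FOXF2 and FOXS1 lost their start summit. FOXD2 and FOXD1, which act in the stroma of the developing kidney among other mesenchyme, were the strongest. FOXD2 had 14.2 (13.4 to 15.0) and a pileup of 1331, 201 bp upstream of its start in chr1:47436573-47438180, with the start of LINC01389 526 bp from the summit. FOXD1 had 13.1 (12.4 to 13.8) and a pileup of 1320, 60 bp downstream of its start in chr5:73447677-73449050. The pileups of the 2 genes were nearly equal, and their local backgrounds were 92.9 and 99.95 fragments.

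FOXC1, a regulator of the eye's anterior segment and of blood vessels, had 9.07 (8.34 to 9.85) and a pileup of 565, 48 bp upstream of its start in chr6:1609708-1610201. Its partner in vessel and lymphatic development, FOXC2, had 4.56 (4.04 to 5.14) and a pileup of 274, 504 bp inside the lower-coordinate end of the gene and 428 bp from an end of FOXC2-AS1. FOXF2, a gene of gut and craniofacial mesenchyme, had 3.75 (3.13 to 4.47) and a pileup of 123 at 943 bp into the gene, 20 bp from the start of the divergent transcript FOXF2-DT and 108 bp from an end of MIR6720. Its relative FOXF1, which acts in lung and gut mesenchyme, had 2.06 (1.52 to 2.74) and a pileup of 45, 765 bp outside the gene and 902 bp from the start of the noncoding gene FENDRR.

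FOXS1, a gene of perivascular cells, had the lowest start enrichment of all members, 1.49 (1.14 to 1.91), from a pileup of 60 over a background of 40.0. The same interval held a summit of 2.79 with a pileup of 115, 1068 bp outside the gene and so beyond the 1000 bp limit. A summit of 8.55 with a pileup of 505 lay 7999 bp outside FOXS1. FOXL1, a Hedgehog-responsive gene of gut mesenchyme, had no start summit and had 4.98 and 5.77 in its flank. Within mesoderm, then, the FOXD pair and FOXC1 carried the strong starts, and FOXF1, FOXS1 and FOXL1 the weak or missing ones. FOXC2, at 4.56, and FOXF2, at 3.75, lay between.

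The upstream sequences of FOXD2 (chr1:47437794-47438043, plus strand, 24 CpGs, summit at base 50) and FOXC1 (chr6:1609665-1609914, plus strand, 37 CpGs, summit at base 203) are shown in the same form, as the strong mesenchymal promoters whose summit lies upstream of the start.
FOXD2: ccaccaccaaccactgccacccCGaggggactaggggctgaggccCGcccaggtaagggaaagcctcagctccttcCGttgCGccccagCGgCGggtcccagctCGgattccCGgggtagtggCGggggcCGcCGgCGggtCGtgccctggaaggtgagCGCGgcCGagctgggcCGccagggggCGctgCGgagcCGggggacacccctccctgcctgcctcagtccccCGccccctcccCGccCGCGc
FOXC1: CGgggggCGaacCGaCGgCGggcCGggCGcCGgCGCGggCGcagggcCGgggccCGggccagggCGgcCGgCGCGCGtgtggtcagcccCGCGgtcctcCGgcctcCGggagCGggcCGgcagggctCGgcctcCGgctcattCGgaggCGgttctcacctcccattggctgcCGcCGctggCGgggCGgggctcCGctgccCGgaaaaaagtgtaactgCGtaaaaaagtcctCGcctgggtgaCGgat

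Endodermal and epithelial genes had a start summit in 5 of 10 members, and 2 of these met the stricter threshold. FOXJ1, the master regulator of motile cilia, had 7.55 (6.73 to 8.44) and a pileup of 307, 102 bp outside the higher-coordinate end of the gene and 791 bp from an end of RNF157-AS1. FOXA1, a pioneer factor of endoderm, breast and prostate, had 5.52 (4.76 to 6.37) and a pileup of 185, 301 bp downstream of its start in chr14:37594306-37595710. The start of TTC6, a coding gene, lay 681 bp from that summit. A FOXA1 flank summit reached 7.95 with a pileup of 179.

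The other 3 were near the lower limit of the list. FOXQ1, an epithelial gene, had 2.06 (1.51 to 2.76) and a pileup of 43. FOXI2, of the ionocyte group, had 1.86 (1.36 to 2.48) and a pileup of 44. FOXN1, required for thymic epithelium, had 1.63 (1.16 to 2.24) and a pileup of 36. All 3 pileups were within 9 fragments of the lowest in the list.

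FOXA2 and FOXA3, the other endodermal pioneers, had no start summit. FOXA2 had a single summit in its window, of 1.83 with a pileup of 38, inside the gene. The strongest summit in the FOXA3 window reached 15.3 with 1827 fragments, but it was 1072 bp upstream of its start and 107 bp from the start of SYMPK, a gene of mRNA 3′ processing. FOXI3 had no start summit either and a flank summit of 3.00. FOXE1, of the thyroid, and FOXI1, of ionocytes, had no summit in the window.

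Neural and sensory genes had a start summit in 2 of 8 members. FOXO6, the FOXO factor known mainly from brain, was the strongest start of the restricted members. It had 15.0 (14.3 to 15.7) and a pileup of 1810, 221 bp upstream of its start in chr1:41360939-41361511, with no other gene end within 1000 bp. FOXO6 was above FOXO1, at 8.54, and FOXO3, at 5.07, and also above both by pileup. FOXD3, a neural crest and stem cell factor, had 2.16 (1.59 to 2.87) and a pileup of 45, with the start of FOXD3-AS1 10 bp from the summit.

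FOXB1, FOXB2, FOXE3, FOXN4 and FOXP2 were among those without a start summit. FOXB1, of the hypothalamus, had 4.60 with a pileup of 97 at 2156 bp into the gene, and FOXN4, of retinal progenitors, had 4 summits inside the gene of at most 2.34. FOXE3, of the lens, had a flank summit of 2.90. FOXP2, known from speech disorders, is a special case, because both starts listed for it lie 328.5 and 340.2 kb inside a gene of 607439 bp. A summit of 9.79 with a pileup of 439 lay 46 bp from the lower-coordinate end of FOXP2, so the count of members without a start summit includes 1 gene that is open at its outer end.

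The upstream sequences of FOXO6 (chr1:41361184-41361433, plus strand, 34 CpGs, summit at base 30) and of FOXE1 (chr9:97852976-97853225, plus strand, 26 CpGs) and FOXB2 (chr9:77019405-77019654, plus strand, 16 CpGs) are set together. All 3 are CpG-rich promoters of restricted genes, and the list has a summit in the first and none within 10 kb of the other two genes.
FOXO6: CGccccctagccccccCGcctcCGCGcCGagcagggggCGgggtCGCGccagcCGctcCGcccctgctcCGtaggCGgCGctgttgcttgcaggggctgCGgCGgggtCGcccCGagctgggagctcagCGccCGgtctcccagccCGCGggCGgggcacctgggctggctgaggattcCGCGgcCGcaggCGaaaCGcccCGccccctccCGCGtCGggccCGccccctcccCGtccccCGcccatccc
FOXE1: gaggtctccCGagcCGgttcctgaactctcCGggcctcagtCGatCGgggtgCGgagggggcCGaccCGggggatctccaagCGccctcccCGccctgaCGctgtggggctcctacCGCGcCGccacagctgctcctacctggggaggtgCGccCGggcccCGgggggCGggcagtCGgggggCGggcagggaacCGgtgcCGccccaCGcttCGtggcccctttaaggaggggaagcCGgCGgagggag
FOXB2: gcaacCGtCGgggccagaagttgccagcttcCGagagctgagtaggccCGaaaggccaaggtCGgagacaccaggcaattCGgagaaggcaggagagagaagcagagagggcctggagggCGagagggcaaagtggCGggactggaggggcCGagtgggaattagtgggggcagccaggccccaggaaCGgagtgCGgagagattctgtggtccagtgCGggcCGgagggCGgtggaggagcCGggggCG

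Genes of the early embryo and gonad had a start summit in 1 of 4 members. FOXL3, a germ cell factor, had 1.69 (1.19 to 2.33) with a pileup of 35, the lowest in the list. FOXL2, the ovarian factor, had none at its start and 4.40 in its flank, and its neighbour FOXL2NB, which begins 80 bp away on the opposite strand, had none at its start either. FOXR1 had none at its start and at most 2.10 in its window. FOXH1, the SMAD partner of Nodal signalling, had none at its ends, and the 13.5 in its window with a pileup of 1669 lay 92 bp from an end of PPP1R16A. As with FOXA3, the strong summit in the window lay next to an end of another gene.

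**Figure D3:**
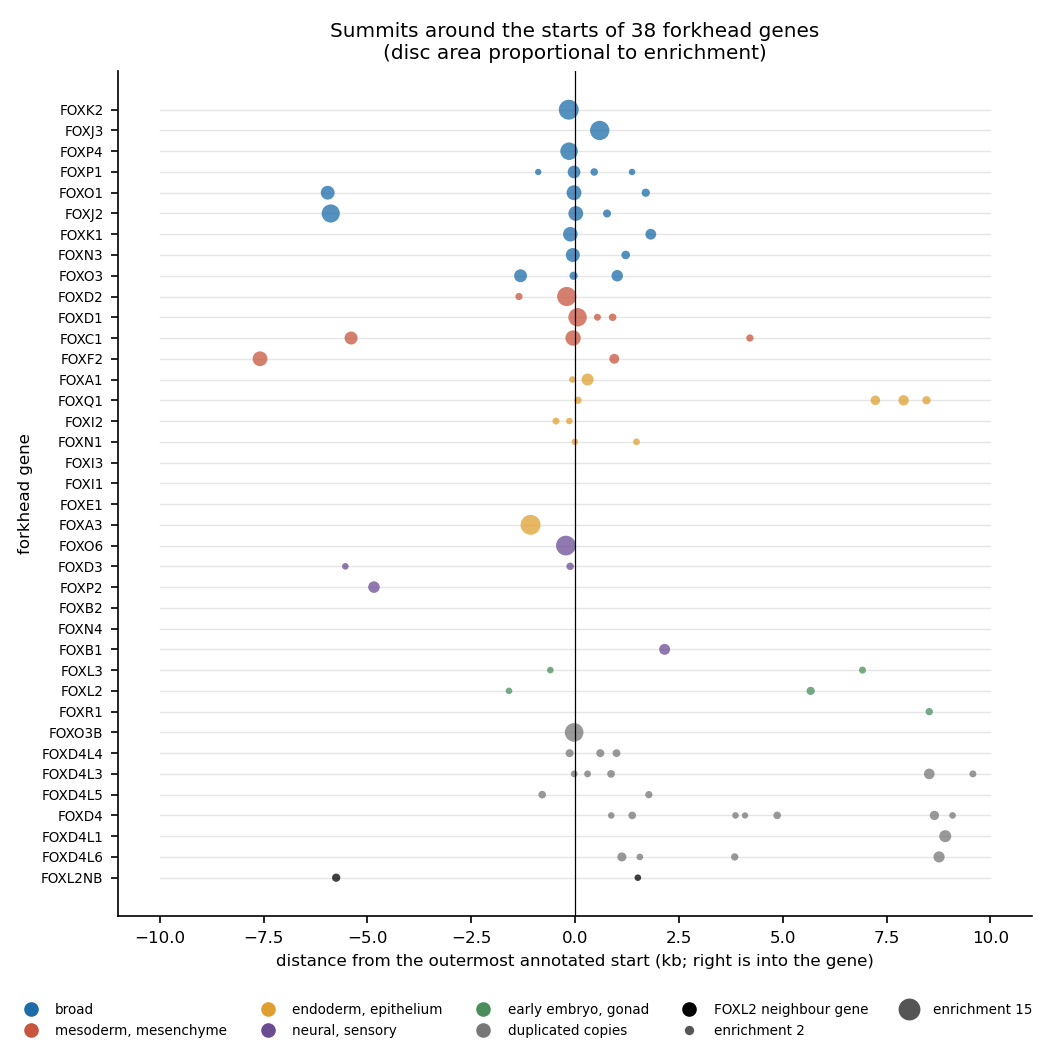
Distance of each summit from the outermost annotated start (horizontal axis, kb, positive into the gene) for the 38 members with an annotated start (rows), with disc area proportional to enrichment and colour by class. Large discs stand at 0 for broad members such as FOXK2 and FOXP4 and for FOXD2, FOXD1, FOXC1, FOXO6 and FOXO3B, and the FOXA3 disc of 15.3 stands 1072 bp upstream.

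Where a start was annotated, the strongest start summit lay within 250 bp of it in 8 of 9 broad and 7 of 11 restricted members, at median distances of 77 and 201 bp. It was within 1000 bp of a start or end of another gene in 5 of 11 broad and 7 of 15 restricted members. In 1 of each class that gene was protein-coding, RHNO1 at FOXM1 and TTC6 at FOXA1. The share of each start's signal that comes from the other gene was not tested. Other summits in the windows were also shared, with FOXP1-DT at FOXP1, LOC124902860 at FOXM1, WDR45B at FOXK2, LINC00466 at FOXD3, LINC01388 at FOXD4, and KIFC2 and TMEM276-ZFTRAF1 at FOXH1.

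Of the 7 duplicated copies, 5 had a start summit, and only 1 of these, at FOXO3B, met the stricter threshold. FOXO3B, a copy of FOXO3 on chromosome 17, had 13.4 (12.45 to 14.3) and a pileup of 816 in chr17:18681829-18682687, 23 bp upstream of its start. An end of the zinc finger pseudogene ZNF286B lay 23 bp from the same summit, and the 300-base promoter windows of FOXO3 and FOXO3B were 50.9% identical when aligned end to end, next to 49.1% for FOXD1 and FOXD2. FOXO3B stood far above the other copies. FOXD4L4 had 2.50 (1.91 to 3.22), FOXD4L3 2.31 (1.76 to 2.99), FOXD4L5 2.25 (1.67 to 2.98) and FOXD4 1.66 (1.22 to 2.21), with pileups of 58, 56, 47 and 45. FOXD4L1 and FOXD4L6 had none at the start, with up to 5.56 and 4.82 in their windows. FOXD4L6 had a summit of 3.17 with a pileup of 70 at 1126 bp into the gene, beyond the 1000 bp limit. The weaker start summit of FOXD4 lay 871 bp into the gene, within that limit.

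These 6 genes are recent copies of 1 gene, and their values are uncertain because the authors' handling of reads that map to several copies is not given in the sources used here. The promoter windows of FOXD4 and FOXD4L6 were 97.3% identical. FOXD4L3 and FOXD4L4 shared an unbroken run of 215 bases, offset by 85 bases, and FOXD4L3 and FOXD4L6 one of 87 bases, offset by 213, so these annotated starts mark different points of the same duplicated stretch. The 250 bases upstream of FOXD4 (chr9:118418-118667, minus strand) and FOXD4L6 (chr9:41128682-41128931, minus strand) are shown with the differing bases in capitals. Of 251 aligned columns, 243 were identical, 6 were mismatches and 2 were gaps. A capital next to no counterpart is a base that the other copy lacks.
FOXD4: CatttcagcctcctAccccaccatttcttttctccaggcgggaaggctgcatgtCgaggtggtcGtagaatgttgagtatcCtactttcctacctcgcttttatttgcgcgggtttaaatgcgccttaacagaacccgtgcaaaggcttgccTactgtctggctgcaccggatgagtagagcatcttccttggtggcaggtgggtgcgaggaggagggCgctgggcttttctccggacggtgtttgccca
FOXD4L6: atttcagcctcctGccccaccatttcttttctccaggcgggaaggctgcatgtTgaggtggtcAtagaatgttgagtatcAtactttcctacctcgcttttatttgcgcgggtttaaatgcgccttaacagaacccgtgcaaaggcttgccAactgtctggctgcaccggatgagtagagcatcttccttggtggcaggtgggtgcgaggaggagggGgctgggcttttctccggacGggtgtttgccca

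Sequence content varied with the classes. The CpG observed over expected ratio, which is low where CpGs have been lost by methylation and deamination, was at least 0.6 in 28 of the 38 members with a promoter window and in 66.1% of all promoters. In the broad class it was so in 9 of 9, with a median of 1.02, and in the restricted class in 16 of 21, with a median of 0.811. The lowest broad ratio, 0.607 at FOXJ3, was just above the threshold, and that window held no summit. Over all promoters at or above 0.6, 85.8% had a start summit, against 34.8% of those below. Of the 16 CpG-rich restricted members, 10 (62.5%) had one, and of the 5 CpG-poor ones 1 did. The 6 CpG-rich restricted members without a start summit were FOXA3, FOXB2, FOXE1, FOXI3, FOXL2 and FOXR1. CpG content therefore moved with the classes, and its part in the difference between them was not tested.

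**Figure D4:**
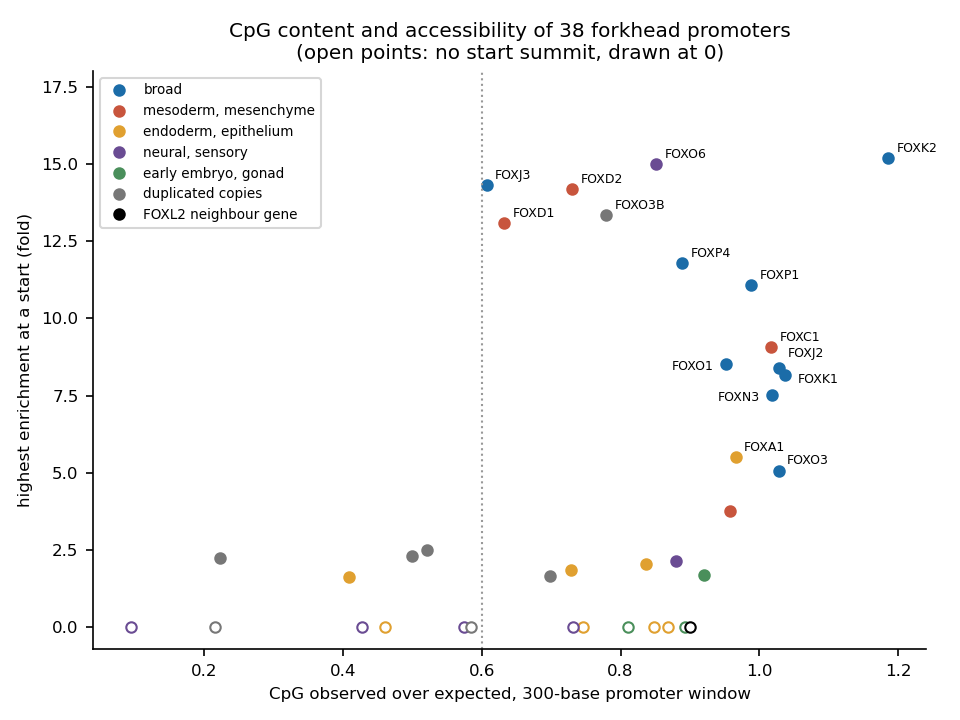
Highest start enrichment (vertical axis, fold) against CpG observed over expected in the 300-base window at the outermost annotated start (horizontal axis) for 38 members, coloured by class, with the 0.6 threshold dotted. Open points at 0 have no start summit. All 9 broad members stand to the right of the threshold with a filled point, while CpG-rich restricted members are found both filled and open. For FOXJ3, FOXP1 and FOXO3 the plotted summit lies at another annotated start than the window.

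A match to the forkhead core motif GTAAACA on either strand was found in 0 of 38 promoter windows, against 2.69% of all 15101. Its shorter form TAAACA, which every GTAAACA match also contains, occurred in 1, FOXI2, 34 bases before the start, against 9.06% of all. The AP-1 motif TGACTCA occurred in 1, FOXD4L1, against 3.60% of all. These counts describe letters in the windows and not binding.

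In 2 places, 3 FOX genes lie together in a cluster. FOXQ1, FOXF2 and FOXC1 span 321.8 kb with their 10 kb margins (chr6:1302098-1623897), which held 29 summits in 23 intervals, 10 of them with an enrichment of at least 5. The highest was not at a FOX start. It had 14.3 with a pileup of 831 at 1325772 inside the noncoding gene FOXF2-DT, followed by 12.8 with a pileup of 466 in the same gene and 9.43 with 472 inside LOC102723944. The FOXC1 start, at 9.07, came next. FOXF1, FOXC2 and FOXL1 span 92.95 kb (chr16:86500527-86593478), with 13 summits in 10 intervals and 2 of at least 5. The highest, 12.9 with a pileup of 551 at 86555262, lay inside no annotated gene, between FOXF1 and FOXC2. The summit before it, at 86549713, lay inside MTHFSD, a gene between these 2. How far the 12.9 site lies from an end of MTHFSD was not determined here. In both clusters the strongest site lay more than 10 kb from every FOX gene and exceeded each FOX start in it.

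**Figure D5:**
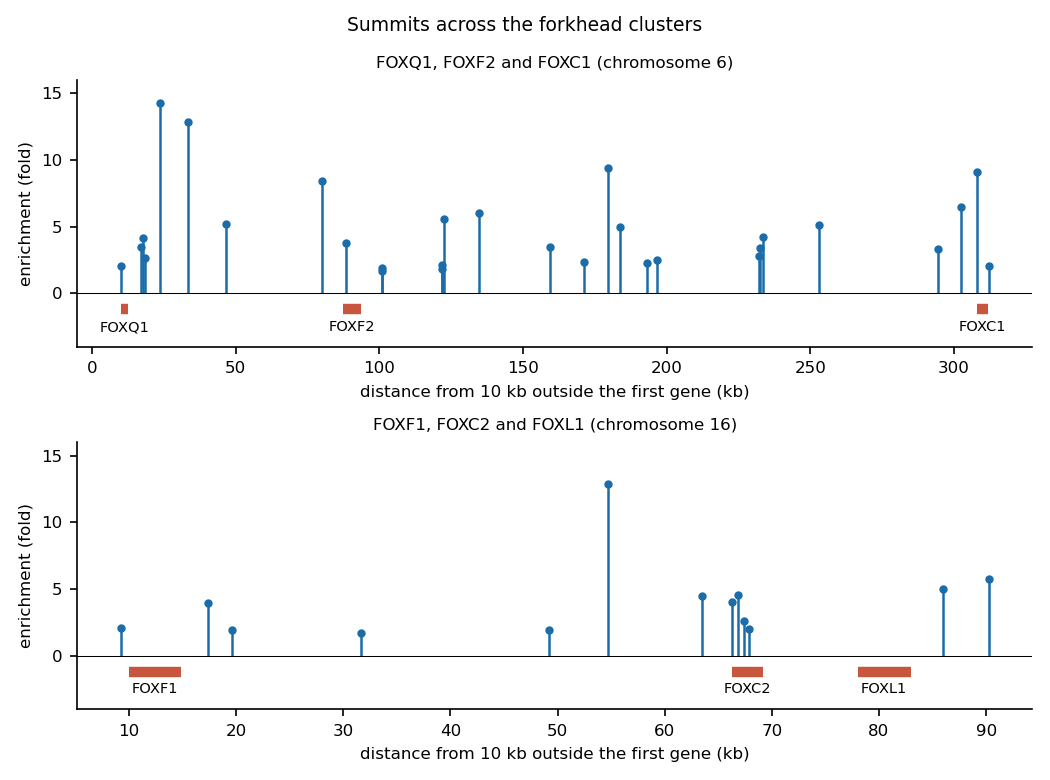
Enrichment of each summit (vertical axis, fold) along the FOXQ1, FOXF2 and FOXC1 cluster on chromosome 6 (upper panel) and the FOXF1, FOXC2 and FOXL1 cluster on chromosome 16 (lower panel), by distance from 10 kb outside the first gene (horizontal axis, kb), with FOX genes as bars under the axis. The highest lines, 14.3 and 12.9, stand between the FOX genes and not at their starts.

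Genes that act with the broad FOX factors were described from lists written from textbook knowledge, with earlier results of these data already known. Of 18 regulators of FOXO proteins (kinases, phosphatase, 14-3-3 proteins, acetylases and ubiquitin enzymes), 16 had a start summit, with a median of 14.9. The lowest was the kinase gene AKT1 at 1.75, with a pileup of 81. SKP2, a ubiquitin ligase subunit, had 19.7 at a summit shared with LMBRD2, and YWHAB, a 14-3-3 protein that holds FOXO in the cytoplasm, had 17.1. STK3 and YWHAZ had none, but either gene end stood in for their starts. In the gene or within 10 kb they reached 16.4 and 10.1. Of 16 FOXO target genes, 14 had one, with a median of 11.3 and the lowest, BBC3, at 2.50. The highest were TXNIP at 17.4, an inhibitor of thioredoxin, and CAT at 16.5, the gene for catalase. The targets without one were SESN3 and PDK4. Within the same 10 kb limit SESN3 reached 18.6, whereas PDK4 had no summit. All 12 FOXM1 targets had one, with a median of 14.3 and the lowest, AURKB, at 9.10. They were led by the mitotic genes CCNB1 at 19.0 and CDC25C at 17.0, the latter shared with LOC100128966. These shares stand beside the 66.8% of all genes. The FOXO1, FOXO3 and FOXM1 starts, at 8.54, 5.07 and 9.47, were each below the medians of the lists that go with them.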

How the data were processed

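The processed data are 1 peak list for 12 ATAC-seq libraries. Per the submitters' processing notes, the tools were fastp 0.20.0, Bowtie2 2.4.3, SAMtools, deepTools 3.5.0 and MACS2 2.2.7.1 and the build was hg38, with no parameters given. Each deposited line holds an interval, a score, a fold enrichment (a ratio), a −log10 p, a −log10 q and a summit. The deposited score was not used, and the lowest deposited −log10 q was 1.30. No column names a library, so the tests between concentrations could not be run, no replicates were compared and depth per library is unknown.

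Pileup and background were solved from the authors' enrichment, taken as (pileup + 1)/(background + 1), and −log10 p, taken as a Poisson tail. The pileup was whole within 0.05 in 99.96% of lines, and the recovery was checked on simulated data. Repeated PCR copies are not told apart, so intervals cover counting error only.

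Summits were assigned to every member within 10 kb, and a start summit lay within 1000 bp of a start in the RefSeq table (GRCh38.p14) or, for genes not listed there, of either end. That table listed 15101 of 19126 coding genes. Named with values are all broad members, all others with a start summit, members without a summit, and neighbours sharing a summit. Of each pathway list, the 2 highest, the lowest and all missing genes are named. Members, classes and lists were chosen with earlier results of these data known. One member enters the counts and is not reported here by name. Counts over genes were not tested. Alternatives changed the windows, the −log10 q, the start definition and the classes. Analyses used Python 3.11.15, numpy 2.4.6, scipy 1.17.1, pandas 2.3.3 and Biopython 1.88.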

Additional observations from a re-analysis of the deposited data

How the results depend on the processing

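Of 44 alternative values, 36 kept within 1.5 times the count or within the interval of the median, and 8 moved. The interval of the median is a 95% interval over member genes, which are not replicates, and differs from the counting intervals above. It was wide, at 7.53 to 15.2 for the 11 broad and 1.86 to 9.07 for the 15 restricted members. The restricted median of 3.75 became 2.11 with mesoderm members counted as broad and 2.41 with the copies counted as restricted. At 500 bp it was 5.52. These values still counted as kept. Counting summits inside the gene body only lowered the members with a summit from 45 to 29 and the distinct summits from 234 to 143. At a −log10 q of at least 10, members with a start summit fell in number from 31 to 20, restricted members from 15 to 8 and summits from 234 to 155. With mesoderm members counted as broad, the classes had 18 and 8 members with a start summit in place of 11 and 15. The restricted median was 0.744 in place of 3.75 with members without a summit at 0, by construction, as 15 of 30 are then at 0. Members with a start summit ranged from 24 to 38 over the other start definitions. FOXN2 lost its start summit at 500 bp, leaving 10 of 11 broad members. FOXF1, FOXF2, FOXS1 and FOXL3 lost theirs too, leaving 11 of 30 restricted members, as did the copies FOXD4 and FOXD4L5. FOXP2, FOXB1, FOXR1 and FOXD4L6 gained one when either gene end counted. Using only the outermost start, chosen after seeing the data, left 31 members and lowered the broad median from 9.47 to 8.54. No paired analysis was possible because the list is pooled over all libraries. A pileup under 35 was not listed, so weaker openness at the starts without a summit was not detectable at this depth.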

Other observations

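The X-linked forkhead genes fall outside the autosomal rule. FOXO4, the remaining FOXO factor, had a start enrichment of 10.2 with a pileup of 223. FOXP3, the regulatory T cell factor, had no start summit and 12.5 within 10 kb of the gene. FOXR2 had no summit in the gene or within 10 kb of it.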
